A study of Mus musculus with 6 samples.

Results

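The 10 genes described here encode transcription factors that build the heart: the zinc-finger factors *Gata4*, *Gata5* and *Gata6*, the basic helix-loop-helix factors *Hand1* and *Hand2*, the homeodomain factors *Nkx2-5* and *Isl1*, the MADS-box factor *Mef2c* and the T-box factors *Tbx5* and *Tbx20*. They were chosen by name, without a cut on their values, though with earlier results of these data known. All 10 were found among the 35565 Ensembl genes of the count table. Bulk RNA sequencing measured them in gastruloids, aggregates of mouse embryonic stem cells (ESCs) that form a body axis in culture, at day 5. Control gastruloids, from ESCs with a non-targeting construct that the sample labels call WT, gave 3 libraries. The other 3 came from KD-1 gastruloids, in which the long non-coding RNA *T-UCstem1* was knocked down. Both came from the ESC line TBV2 129/SvP and both received 3 µM CHIR99021, a GSK3 inhibitor that switches on WNT signalling. KD-1 is a single clone, so a feature of the clone and an effect of the knockdown cannot be told apart.

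Heart progenitors arise from early mesoderm that has left the primitive streak, and these factors act there as a network whose members bind each other and each other's regulatory DNA. GATA4 works with NKX2-5, TBX5, HAND2 and MEF2C on genes of the contractile apparatus, while ISL1 marks the second heart field, the progenitors that extend the heart tube. None of the 10 is exclusive to the heart: *Gata4* and *Gata6* also serve endoderm, *Isl1* motor neurons, *Hand1* the extraembryonic mesoderm and trophoblast, and *Mef2c* endothelium, skeletal muscle and neurons.

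Library depth ran from 20982249 to 56674906 counts in Control and from 41180012 to 85561026 in KD-1. The columns of the count table give the group of a library but not its replicate number, so that libraries are named by their depth within the group (shallowest, middle, deepest), and whether the 3 of a group came from separate cultures rests on the design text. Of the 14 posterior-axis genes that mark a day 5 gastruloid, 13 passed the filter on low counts and none was at 0 in all libraries. Their summed level was 590 to 655 CPM in Control and 198 to 210 in KD-1, while that of 10 pluripotency genes was 1520 to 1624 and 3771 to 3852. Most of the posterior fall was that of *Meox1*, a homeobox gene of somites, from 371 to 0.423 CPM on average, while *Hoxb9*, a trunk Hox gene, had 113 and 133 CPM and was not called, and *Fgf17*, a tail bud ligand, rose by 1.57 on the log2 scale. Several genes of both lists, *Meox1* among them, were picked by the study from these libraries, so that their direction is not independent evidence. CPM are counts scaled to the same total of 1000000 per library, after TMM normalization unless stated otherwise. The middle Control library stood apart in its zeros. In it, 43 tested genes, 30 of them protein-coding, had no count although both other Control libraries predicted at least 10, against 3 to 14 such genes, 1 to 3 of them protein-coding, in each other library.

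The cardiac factors were scarce in both groups, and those that fell in KD-1 were *Gata4* and *Isl1*. Together the 10 genes reached 4.58 to 5.26 CPM in the Control libraries and 2.72 to 3.40 in the KD-1 libraries. Only *Gata4*, *Isl1*, *Mef2c* and *Tbx20* had enough reads to pass the filter (4 of 10 members, 15110 genes in all). Of these 4, *Gata4* and *Isl1* were called lower and none was called higher. A call needed a difference of more than 1.5-fold and a Benjamini-Hochberg adjusted p below 0.05 in the quasi-likelihood test of edgeR. Over all genes tested, 37.7% were called, 18.1% lower and 19.7% higher, so that changes of this kind were common in these libraries. Without the filter all 10 members could be tested, and *Gata5* and *Gata6* joined the other two as lower, 4 of 10 members against 27.3% of all 22192 genes with a count, 12.6% of them lower. Since whole gastruloids were sequenced, fewer cells of a type and less RNA per cell cannot be told apart.

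**Figure D1:**
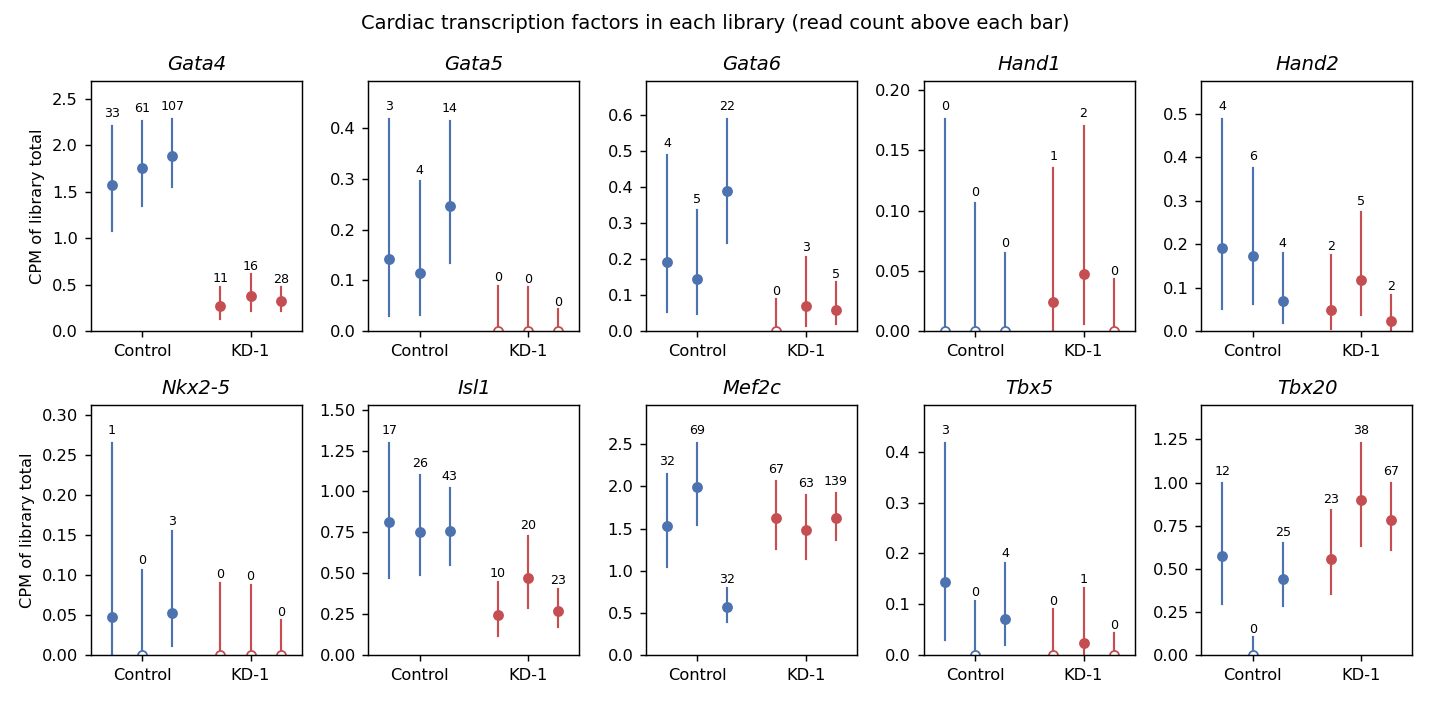
Level of each cardiac transcription factor in each library, as CPM of the library total on a linear axis that differs between panels. Points are single libraries ordered by depth within the group (Control blue, KD-1 red, open where no read was counted), bars are 95% exact Clopper-Pearson intervals for counting error and the read count stands above each bar. The groups are apart for *Gata4*, *Gata5*, *Gata6* and *Isl1* and overlap for the other 6.

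*Gata4*, which encodes the zinc-finger factor needed for the heart tube to form (ENSMUSG00000021944, GRCm39 chromosome 14, from 63436362 to 63509141, minus strand), was the most strongly changed of the tested members. It had 33, 61 and 107 counts in the shallowest, middle and deepest Control libraries and 11, 16 and 28 in the corresponding KD-1 libraries. As CPM these are 1.59, 1.80 and 1.93 in Control and 0.262, 0.368 and 0.322 in KD-1. Every Control library lay well above every KD-1 library. The mean was 1.78 ± 0.172 CPM (SD, n = 3) in Control and 0.317 ± 0.0528 (SD, n = 3) in KD-1, a 5.58-fold fall. The log2 fold change was -2.48 (standard error 0.28, 95% interval -3.11 to -1.84, adjusted p = 8.4e-05, edgeR's quasi-likelihood test). *Gata4* is among the genes the study itself picked from these libraries for display, so that its direction is not independent evidence.

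*Gata5* and *Gata6*, close relatives that can stand in for *Gata4* in part of the heart and in endoderm, were much scarcer but went the same way. *Gata5* (ENSMUSG00000015627, chromosome 2, from 179966880 to 179976509, minus strand) had 3, 4 and 14 counts in the Control libraries, again in order of depth, and none in any KD-1 library. A count of 0 allows up to 0.0729, 0.0707 and 0.0351 CPM of the library total in the KD-1 libraries, taking 3 counts as the limit. Its pooled level in KD-1 was at most 0.128 of that in Control, the upper end of the 95% exact interval for 21 against 0 counts, which covers counting error in both groups. *Gata6* (ENSMUSG00000005836, chromosome 18, from 11051565 to 11086995, plus strand) had 4, 5 and 22 counts in Control and 0, 3 and 5 in KD-1. Its pooled level in KD-1 was 0.171 of that in Control (95% exact interval 0.0681 to 0.381, counting error only). In both genes the lowest Control library was above the highest KD-1 library, as for *Gata4* and *Isl1*. This made 4 of the 10 members with groups that did not overlap, where 53.3% of all genes with a count and 70.6% of all genes tested did not. In each of the 4 every Control library was the higher, as in 25.5% of the genes with a count. Neither passed the filter, and in the fit without it the adjusted p was 0.0054 for *Gata5* and 0.047 for *Gata6* (edgeR's quasi-likelihood test). DESeq2, run without that filter, gave 0.0025 and 0.045. Both genes overlap an antisense gene on the other strand (*Gata5os* and *Gata6os*, not analysed here), and whether counting used strand is not given in the sources used here.

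*Gata4* was the leading gene of its family by level per length in Control and not in KD-1. Per kilobase of the canonical transcript, it made up 48.6% ± 5.75 (SD, n = 3) of the summed level of *Gata1* to *Gata6* in Control and 19.4% ± 2.39 (SD, n = 3) in KD-1. *Gata3*, a factor of trophoblast, sympathetic neurons and other tissues, made up 31.6% ± 11.02 in Control and 54.6% ± 10.9 in KD-1 (SD, n = 3 each). In the middle Control library *Gata4* and *Gata3* were nearly level, at 43.9% and 43.2%. The level of *Gata3* itself did not pass, at -0.41 on the log2 scale (adjusted p = 0.39 by edgeR's quasi-likelihood test). Nor did that of *Gata2*, a factor of blood progenitors (0.30, adjusted p = 0.68, the same test). *Gata2* and *Gata3* lie outside the naming rule and were chosen after their values were seen. The shares describe each library and do not depend on the normalization between libraries.

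Markers of endoderm, where *Gata4* and *Gata6* are also used, moved both ways. Of 21 such genes, 11 were tested. In KD-1, 4 of them were called higher and 5 lower, against 37.7% called of all genes tested. The summed level of the 21 was 165 to 185 CPM in Control and 205 to 209 in KD-1, and none was at 0 in all libraries. *Cer1*, a secreted inhibitor of Nodal and BMP made by anterior endoderm and also by forming somites, fell by 7.93 on the log2 scale, whereas *Sox7*, an endoderm and endothelial factor, rose by 2.23 (adjusted p = 1.8e-07 and 0.011, edgeR's quasi-likelihood test). *Lama1*, a laminin gene, was the most abundant of the list in Control and *Trap1a* in KD-1. The study's methods describe pre-plating to remove feeder cells for its colony assay. Before aggregation into gastruloids its cells grew at low density on gelatin-coated plates. Whether pre-plating came before that growth is not given in the sources used here. Of the 12 markers of feeder fibroblasts, 8 were tested, with 1 called higher and 5 lower. Their sum was 38.1 to 43.8 CPM in Control and 6.44 to 7.61 in KD-1. Most of the Control sum was *Fap*, a cell-surface protease, which had the largest fall, from 27.9 ± 2.68 to 0.0389 ± 0.0138 CPM (SD, n = 3 each). No other gene of the list exceeded 5.43 CPM on average in Control. *Mmp2* (log2 fold change 0.98) rose. The part of these cell types in the change of the GATA genes was not tested.

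*Isl1*, the LIM-homeodomain factor of the second heart field (ENSMUSG00000042258, chromosome 13, from 116434817 to 116446235, minus strand), also fell, by less. It had 17, 26 and 43 counts in the Control libraries and 10, 20 and 23 in the KD-1 libraries. In CPM the Control libraries were nearly level, at 0.820, 0.769 and 0.776. Those of KD-1 reached 0.238, 0.460 and 0.265. The groups did not overlap, although the middle KD-1 library came nearer to Control than the other two. The mean fell from 0.788 ± 0.0275 to 0.321 ± 0.121 CPM (SD, n = 3 each), 2.47-fold. The log2 fold change was -1.30 (standard error 0.38, 95% interval -2.16 to -0.45, adjusted p = 0.015, edgeR's quasi-likelihood test). This call rested on few reads: without the shallowest KD-1 library the adjusted p was 0.071, and without the deepest KD-1 library 0.085, in the same test.

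*Isl1* is also a motor neuron gene, and 14 markers of motor and sympathetic neurons went largely the other way. Of the 7 tested, 4 were called higher and 1 lower, against 37.7% called of all genes tested. The sum of the list was 10.1 to 11.1 CPM in Control and 78.4 to 81.5 in KD-1. Most of it came from *Tubb3*, a tubulin of all neurons. *Elavl3*, an RNA-binding protein of new neurons, rose by 4.19 on the log2 scale (adjusted p = 3.1e-07, edgeR's quasi-likelihood test). *Mnx1*, the factor that defines motor neurons and is also made in notochord and early endoderm, fell from 1.06 ± 0.00951 to 0.0657 ± 0.0232 CPM (SD, n = 3 each). None of the 14 was at 0 in all libraries, and the part of these cells in the change of *Isl1* was not tested.

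Promoter sequences from RefSeq (build GRCm38.p6) were used for 6 of the 10 members, 8 sequences in all, with 3 start sites of *Mef2c*. Those of *Gata4*, *Gata6*, *Hand1* and *Tbx5* were not searched, so the matches given here do not cover these genes. The 250 bases before the start were searched on both strands for the GATA motif AGATAA, with T also allowed as its first letter and G as its last. *Hand2* had 2 matches and *Isl1* had 1, and the windows of *Gata5*, *Mef2c*, *Nkx2-5* and *Tbx20* had none. Among all 32851 promoters of the same length, 26.5% had a match. The next 3 sequences are those of *Isl1*, which fell, *Gata5*, which no KD-1 library detected, and *Hand2*, with the most matches. Capitals mark the GATA motif on either strand, and each reads 5′ to 3′ along its gene.
Isl1, chr13:116309689-116309938, minus strand: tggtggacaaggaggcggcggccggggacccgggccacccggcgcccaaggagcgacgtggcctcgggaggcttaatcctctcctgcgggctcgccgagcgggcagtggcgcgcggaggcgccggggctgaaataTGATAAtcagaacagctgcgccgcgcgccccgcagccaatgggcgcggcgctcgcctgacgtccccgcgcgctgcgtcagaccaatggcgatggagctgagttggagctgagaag
Gata5, chr2:180334680-180334929, minus strand: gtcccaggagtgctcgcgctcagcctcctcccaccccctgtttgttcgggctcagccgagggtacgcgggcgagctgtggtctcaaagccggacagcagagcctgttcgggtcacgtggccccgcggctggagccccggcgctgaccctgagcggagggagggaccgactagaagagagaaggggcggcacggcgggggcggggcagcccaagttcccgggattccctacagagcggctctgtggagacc
Hand2, chr8:57320733-57320982, plus strand: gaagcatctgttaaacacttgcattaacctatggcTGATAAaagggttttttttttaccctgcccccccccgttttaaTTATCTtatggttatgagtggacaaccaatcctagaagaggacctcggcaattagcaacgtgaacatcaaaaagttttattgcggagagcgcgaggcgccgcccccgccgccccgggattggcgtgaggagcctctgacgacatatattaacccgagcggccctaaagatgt
The *Isl1* and *Gata5* windows held 71.2% and 70.0% G and C bases and that of *Hand2* 49.2%. The E-box CANNTG, which HAND proteins bind with a partner, had 1 match in *Isl1*, 1 in *Gata5* and 2 in *Hand2*, and 66.2% of all promoters had a match. A match is a description of the letters and not a site of binding.

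*Mef2c* and *Tbx20* were tested and not called, and in both the Control libraries differed widely among themselves. *Mef2c* encodes a MADS-box factor of heart, skeletal muscle, vessels and brain (ENSMUSG00000005583, chromosome 13, from 83652064 to 83815555, plus strand). It had 32, 69 and 32 counts in the Control libraries in order of depth and 67, 63 and 139 in the KD-1 libraries. The Control levels of 1.54, 2.04 and 0.577 CPM spread more widely than the KD-1 levels of 1.60, 1.45 and 1.60. In the deepest Control library the 95% exact interval, 0.386 to 0.797 CPM of the library total, did not reach those of the other 5 libraries. The log2 fold change was 0.20 (standard error 0.41, 95% interval -0.73 to 1.13, adjusted p = 0.68, edgeR's quasi-likelihood test). Without the deepest Control library it was -0.23 (adjusted p = 0.42), and without the middle one 0.73 (adjusted p = 0.079).

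*Tbx20*, a T-box factor of the heart chambers that is also made by cranial motor neurons (ENSMUSG00000031965, chromosome 9, from 24629434 to 24685599, minus strand), was the only tested member with a mean above Control by more than 1.5-fold. It had 12, 0 and 25 counts in Control and 23, 38 and 67 in KD-1. The levels were 0.579, 0 and 0.451 CPM in Control and 0.548, 0.873 and 0.771 in KD-1, and the groups overlapped. The zero was in the middle Control library, the one with many such zeros, and its exact interval ends at 0.106 CPM of the library total, below the intervals of both other Control libraries. The log2 fold change of 1.13 did not pass (standard error 0.74, 95% interval -0.57 to 2.83, adjusted p = 0.21, edgeR's quasi-likelihood test). With that library left out it was 0.56 (adjusted p = 0.19). The interval of *Mef2c* thus includes a 1.5-fold change either way, and that of *Tbx20* includes a 2-fold rise.

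**Figure D2:**
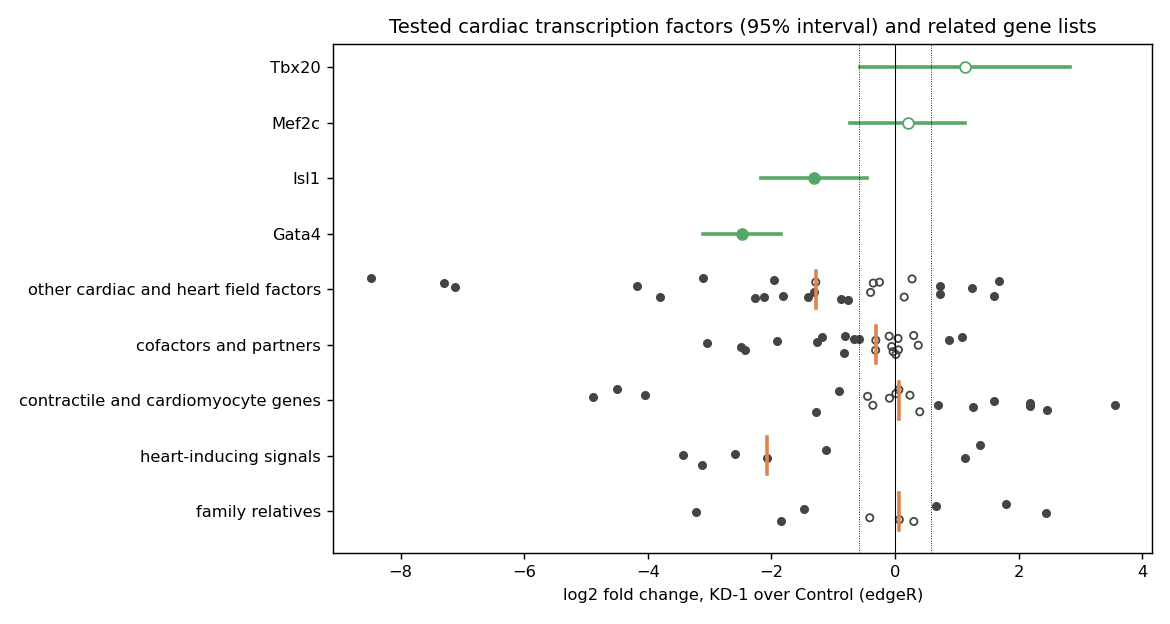
Log2 fold change of KD-1 over Control for the 4 tested cardiac transcription factors (green, with 95% intervals from edgeR) and for each tested gene of 5 related lists (grey, 1 point per gene, orange bar at the median). Filled points were called, dotted lines mark a 1.5-fold change, and the intervals of *Gata4* and *Isl1* lie below 0 while those of *Mef2c* and *Tbx20* include it.

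The relatives of *Mef2c* that bind the same DNA motif were far more abundant. Per kilobase of the canonical transcript, *Mef2a* had 6.46 CPM on average in Control and 6.69 in KD-1, *Mef2d* had 4.20 and 3.39, *Mef2b* had 1.68 and 0.960, and *Mef2c* had 0.195 and 0.217. *Mef2c* thus made up 1.55% ± 0.835 (SD, n = 3) of the family in Control and 1.93% ± 0.0817 (SD, n = 3) in KD-1. *Mef2b* was called lower, at -0.80 on the log2 scale (adjusted p = 0.0037 by edgeR's quasi-likelihood test). *Mef2d* had -0.31, under the 1.5-fold threshold, and *Mef2a* had 0.05 (adjusted p = 0.51, the same test).

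Markers of other tissues that use *Mef2c* moved as follows. Of 16 endothelial and blood genes, 7 were tested, 2 were called higher and 4 lower, against 37.7% called of all genes tested. The sum of the 16 was 27.6 to 28.8 CPM in Control and 34.7 to 37.0 in KD-1. The largest share came from the adhesion gene *Pecam1*, which ESCs also express. *Tek*, an endothelial receptor, rose by 2.32 and *Fli1*, an endothelial and blood factor, fell by 3.70 on the log2 scale. Of 10 skeletal muscle genes, 4 were tested, 3 were called lower and none higher, and the sum fell from between 106 and 115 CPM to between 52.8 and 53.7. *Pax3*, a factor of muscle progenitors and the dorsal neural tube, held most of that sum, and *Mymk* was at 0 in every library. The part of these tissues in the level of *Mef2c* was not tested.

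The other 4 members were at the edge of detection. *Hand2*, a factor of the right ventricle, limb and sympathetic neurons (chromosome 8, from 57774011 to 57777677, plus strand), had 4, 6 and 4 counts in the Control libraries and 2, 5 and 2 in the KD-1 libraries. Its pooled level in KD-1 was 0.427 of that in Control, with a 95% exact interval of 0.163 to 1.06 that includes equal levels. *Tbx5*, the factor of the left heart and forelimb (chromosome 5, from 119970733 to 120023284, plus strand), had 3, 0 and 4 counts in Control and 0, 1 and 0 in KD-1. With 7 against 1 counts in all, the ratio of KD-1 to Control was 0.0949 (95% exact interval 0.00211 to 0.739, counting error only). The Control and KD-1 libraries overlapped in both genes, and in the fit without the filter the adjusted p was 0.37 for *Hand2* and 0.16 for *Tbx5* (edgeR's quasi-likelihood test).

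*Nkx2-5*, the homeodomain factor that is the classic first marker of heart progenitors (chromosome 17, from 27057638 to 27063983, minus strand), had 1, 0 and 3 counts in Control and none in KD-1. *Hand1*, a factor of the left ventricle and of extraembryonic tissue (chromosome 11, from 57719531 to 57723644, minus strand), had none in Control and 1, 2 and 0 counts in KD-1. No library thus held more than 3 counts of either gene. The 95% exact interval of the ratio of KD-1 to Control for *Nkx2-5* reached 1.01 and so included equal levels, and no ratio is given for *Hand1*. In the fit without the filter neither passed (adjusted p = 0.12 for *Nkx2-5* and 0.29 for *Hand1*, edgeR's quasi-likelihood test), and a difference in either gene was not detectable at this depth. *Hand1*, *Hand2* and *Tbx5* each overlap antisense genes on the other strand that were not analysed here. Of 12 trophoblast and amnion markers, tissues in which *Hand1* is used, 7 were tested. Of these, 1 was called higher and 4 lower, against 37.7% called of all genes tested. The rise was that of *Tfap2c* (log2 fold change 1.09), a factor that early germ cells and ESCs also express. *Esx1*, an X-linked placental factor, fell by 1.85 on the log2 scale. The trophoblast-defining *Prl3d1*, *Prl2c2* and *Tpbpa* were at 0 in every library, and the sum of the list was 31.4 to 39.1 CPM in Control and 54.6 to 57.5 in KD-1.

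Ranked by level per length, the members ran from *Gata4* at the top in Control to *Hand1*, at 0. *Gata4* had 0.418 ± 0.0404 CPM per kilobase, *Isl1* 0.312 ± 0.0109 and *Mef2c* 0.195 ± 0.104 (SD, n = 3 each), and these 3 had ranges that did not touch from *Gata4* to *Isl1* and from *Isl1* to *Mef2c*. Below them *Hand2* (0.0623), *Gata6* (0.0534), *Gata5* (0.0515), *Tbx20* (0.0377), *Nkx2-5* (0.0220) and *Tbx5* (0.0183) each overlapped with the next. In KD-1 the order began with *Mef2c* (0.217 ± 0.0122), then *Isl1* (0.127 ± 0.0478), *Tbx20* (0.0802 ± 0.0182) and *Gata4* (0.0747 ± 0.0124; SD, n = 3 each). *Mef2c* stood clear of *Isl1*, while *Isl1*, *Tbx20* and *Gata4* overlapped each with the next, and *Gata4* stood clear of *Hand2* (0.0261). *Gata4* thus ranked 1 of 10 in Control and 4 of 10 in KD-1, and *Tbx20* ranked 7 and 3. With the union of all annotated exons as the length, the ranks of *Gata4*, *Isl1*, *Mef2c* and *Hand2* in both groups were the same. The gaps in KD-1 were not kept with that length. There the ranges of *Mef2c* and *Isl1* overlapped (means 0.0904 and 0.0809), and so did those of *Gata4* and *Hand2* (0.0558 and 0.0261).

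**Figure D3:**
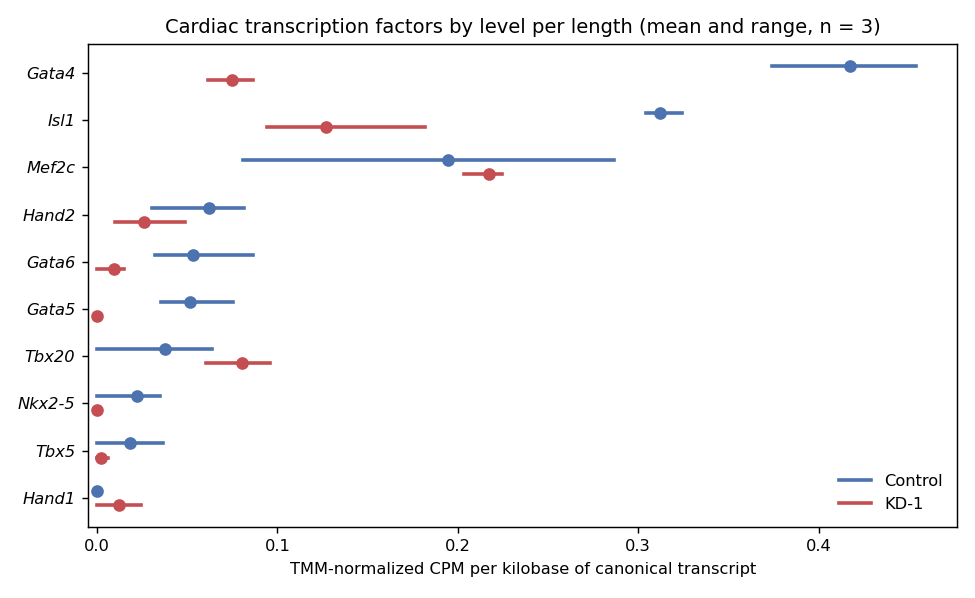
Level per length of the 10 cardiac transcription factors, as TMM-normalized CPM per kilobase of the canonical transcript on a linear axis, with the mean (point) and range (line) of the 3 libraries of Control (blue) and KD-1 (red). *Gata4* drops from 0.418 to 0.0747 and *Mef2c* leads in KD-1 at 0.217.

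By the shape of its profile over the 6 libraries, the protein-coding gene nearest to *Gata4* was *Ptger4*, a prostaglandin receptor gene (distance 0.260 on the log2 scale, 1.501 CPM in Control and 0.244 in KD-1 on average). The gene nearest to *Isl1* was *Piezo2*, a mechanosensitive channel gene (distance 0.267, 4.02 and 2.02 CPM). The distance is Euclidean between log2 CPM values centred on their mean, and with 6 libraries in 2 groups it mostly reads the group difference.

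Factors that act around these 10 genes in the heart fields were more abundant and many of them fell. Of 31 other cardiac and heart field factors, 25 were tested, 5 were called higher and 14 lower (76.0% called, against 37.7% of all genes tested), and the median log2 fold change was -1.28, against -0.01 over all genes tested. *Foxc2*, *Tbx18* and *Foxc1*, forkhead and T-box factors of paraxial mesoderm and of the sinus or outflow parts of the heart, had the largest falls. *Foxc1* went from 43.4 ± 9.76 to 0.311 ± 0.0422 CPM (SD, n = 3 each), or -7.13 on the log2 scale, and *Foxc2* and *Tbx18* had -8.49 and -7.29. These 3 were also picked by the study from these libraries. The largest rises were those of *Irx5* (1.68), *Prdm1* (1.60) and *Irx2* (1.25), of which the *Irx* factors also pattern the neural tube and *Prdm1* marks germ cells and endoderm. *Mesp1*, the factor that starts the cardiac programme in mesoderm, had 0, 2 and 1 counts in Control and none in KD-1, and *Nkx2-6* and *Tcf21* were at 0 in every library. *Mesp1* lies outside the naming rule and was chosen after its values were seen.

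Partners of the 10 factors went mostly down where they changed. Of 24 genes for cofactors and proteins sharing their DNA motifs, 22 were tested, 2 were called higher and 10 lower. This made 54.5% called, against 37.7% of all genes tested, and the median log2 fold change was -0.31. *Zfpm2*, also known as FOG2, the partner protein of GATA4, fell from 3.02 ± 0.856 to 0.543 ± 0.117 CPM (SD, n = 3 each). On the log2 scale this was -2.42 with a standard error of 0.29 (adjusted p = 1.2e-04 by edgeR's quasi-likelihood test). *Twist1*, a helix-loop-helix relative of the HAND proteins in mesenchyme, had -3.05 and *Nfatc4*, a calcium-dependent factor, -2.50. The genes called higher were *Tead1*, the DNA-binding partner of YAP (1.09), and *Hdac9*, a deacetylase that binds MEF2 proteins (0.88).

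Genes of the heart muscle itself did not move in 1 direction. Of 36 contractile and cardiomyocyte genes, 19 were tested, 7 were called higher and 5 lower. This made 63.2% called, against 37.7% of all genes tested, and the median log2 fold change was 0.06. Among the falls were *Tnnt2*, the troponin T of heart muscle, from 3.50 ± 0.652 to 0.120 ± 0.0172 CPM (SD, n = 3 each, log2 fold change -4.88), *Actc1*, cardiac actin (-4.50), and *Tnni1*, the troponin I of embryonic heart and slow muscle (-4.05). The rises included *Ttn*, the giant spring protein of the sarcomere, from 1.5003 ± 0.599 to 17.5 ± 1.32 CPM (SD, n = 3 each, log2 fold change 3.56), *Ldb3* (2.46), a protein of the Z-disc, and *Myh6* (2.18), the atrial myosin. *Myh6* stayed scarce, at 2, 8 and 5 counts in the Control libraries in order of depth and 31, 24 and 55 in the KD-1 libraries. *Nppa*, the natriuretic peptide gene of the early heart chambers, and *Pln*, *Ankrd1* and *Hspb7* were at 0 in every library. The summed level of the list, 592 to 650 CPM in Control and 580 to 591 in KD-1, came mostly from *Gja1*, *Atp2a2* and *Tpm1*, genes of many cell types that are named here after their values were seen.

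Signals that induce the heart mostly fell. Among 10 ligands 7 passed the filter, of which 2 were called higher and 5 lower, against 37.7% called of all genes tested. Without the filter 9 were tested and 8 called, against 27.3% of all 22192 genes with a count. *Bmp2* and *Bmp5*, BMP ligands for heart progenitors, had log2 fold changes of -3.12 and -3.42, and *Fgf8*, a ligand of the second heart field that the study also displayed, had -2.59. *Bmp4* (1.14) and *Nrg1* (1.38), the neuregulin that signals to heart muscle, rose, and *Bmp10* was at 0 in every library. In the families of the 10 factors, 19 other genes were listed and 9 tested, with 3 called higher and 3 lower. *Lhx1*, a LIM-homeodomain gene, *Tbx15* and *Tbx6* fell, with -3.22, -1.84 and -1.47 on the log2 scale, while *Isl2*, a motor neuron relative of *Isl1*, and *Tbx4* rose, with 2.45 and 1.80.

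**Figure D4:**
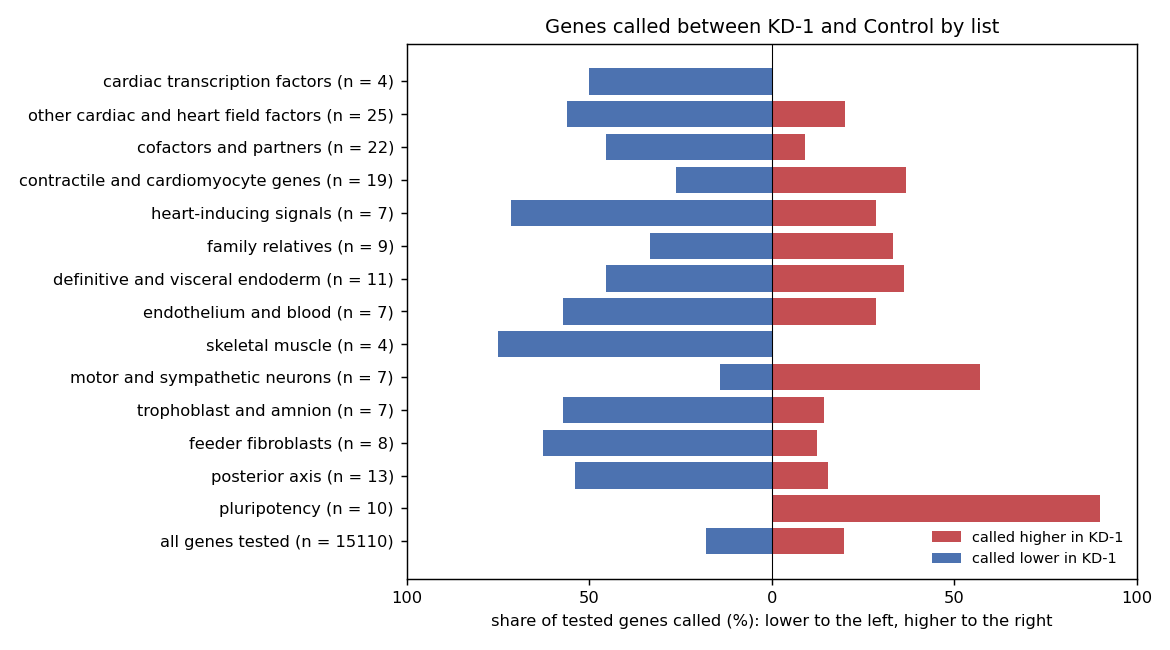
Share of the tested genes of each list called lower (blue, to the left) and higher (red, to the right) in KD-1, in percent, with all 15110 genes tested as the last bar and the number tested beside each name. The cardiac transcription factors show calls in the lower direction only, 2 of the 4 tested.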

How the data were processed

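The study made TruSeq libraries and quantified paired-end reads with Salmon (version 1.1) on a Gencode gene model. The authors deposited estimated counts per Ensembl gene as whole numbers, without normalization. The genome build, the rounding and the use of strand are not given in the sources used here. Column suffixes do not match the replicate numbers of the labels one to one, so columns were assigned to groups only. Names, positions and transcript lengths come from GENCODE vM39 (GRCm39), which holds 35222 of the 35565 identifiers.

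Counts were tested with edgeR 4.0.16 in R 4.3.3 (filterByExpr, TMM, robust quasi-likelihood, condition as the sole term). A standard error is the log2 fold change divided by the root of F. Alternatives used DESeq2 1.42.0, limma 3.58.1, other normalizations, filters and thresholds, and each library left out. On simulated counts for KD-1 against Control (15110 genes, 200 changed by 1.5 on the log2 scale), edgeR recovered 193 changed genes and made 4 false calls. Every simulated gene had the same dispersion, and far fewer genes changed than were called in the data. The recovery therefore does not carry over to scarce genes such as the cardiac factors. Low counts have exact Clopper-Pearson intervals at 95%, which cover counting error only. Ratios of pooled counts use the exact binomial interval of the KD-1 share.

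The genes and lists were chosen with earlier results of these data known. Named are all 10 members, up to 3 called genes in each direction of every related list with at least 10 counts in each library of the higher group, *Mef2a*, *Mef2b* and *Mef2d*, and, per marker list, the most abundant gene of each group and the largest called change each way. Profiles were compared as log2(CPM + 0.1). A gene that this rule also names is not reported here.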

Additional observations from a re-analysis of the deposited data

How the results depend on the processing

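*Gata4* was called lower in all 16 alternatives, with a log2 fold change between -2.56 and -2.36. *Isl1* kept its direction in all 16 (-1.61 to -1.13) and lost its call in 2, without the shallowest (-1.13) and without the deepest KD-1 library (-1.15). *Mef2c* (-0.23 to 0.73, the negative value without the deepest Control library) and *Tbx20* (0.56 to 2.18) were called in none that tested them. With DESeq2 and without a filter on low counts, 4 members were called in place of 2, since *Gata5* and *Gata6* could then be tested, and none was called higher. Over all genes, DESeq2 called 31.9% of the 18745 with an adjusted p. Without the filter edgeR called 27.3% of 22192. Leaving out a library gave 1 to 2 called members. With at least 10 counts in every library, 6 contractile genes were called, where fewer were tested (13). An absolute log2 fold change over 1 left 7 cofactors and 3274 genes in all, and no fold change threshold gave 9597. With at least 10 counts in every library, calls fell from 14 to 8 lower among the other cardiac factors, 5 to 3 lower among signals and 3 to 1 higher among family relatives, whose totals in both directions together stayed within 1.5 times. The marker lists were not recomputed under the alternatives. No paired analysis was possible because the columns carry no replicate number of the labels. Depth limits *Hand1*, *Nkx2-5* and *Tbx5*, at no more than 4 counts in any library.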

Other observations

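Zeros in the middle Control library reached beyond *Tbx20*. Its 30 protein-coding genes without a count, each predicted at 10 or more from both other Control libraries, included *Dcx*, a microtubule protein of migrating neurons (18.3 counts predicted), *Hoxc13*, the most posterior HoxC gene (12.8), and *Spo11*, the meiotic recombination enzyme (21.4), all named after their values were seen. The largest prediction among the 30 was that of *Fam177a2*, at 259.3 counts. *Fam177a* had no count in the shallowest Control library, where 88.3 were predicted, and both are also named after their values were seen. For *Tbx20* the prediction was 15.2 counts. The same library had the highest *Mef2c* level of the 6, at 2.04 CPM, and the deepest Control library, with the lowest *Mef2c* level, had 2 such protein-coding zeros.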
